A study of Mus musculus with 18 samples.

Results

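Interferon-stimulated genes are described here in WEHI-231, a mouse line of immature B lymphoma cells that die after ligation of their B cell receptor (BCR). The 44 genes, from the interferon receptor chains and their transcription factors to antiviral enzymes, were taken by name from a list of interferon response genes out of 55487 genes in the count tables. Each of the 44 matched 1 Ensembl gene. Parp12, a PARP enzyme, never exceeded 3 counts in a library and was too low to test, so 43 genes were tested. In bulk RNA, fewer transcripts per cell and fewer cells that carry a transcript cannot be told apart.

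The study sequenced RNA of 9 groups in 2 independent experiments, which gave 18 libraries with 2 per group. Parental cells were compared with the TFEB knockout clones #A-59 and #B-20. Each was left untreated (0 h) or treated for 6 or 18 h with 10 µg/ml of F(ab')2 fragments against mouse IgM. TFEB is a transcription factor of lysosomal and autophagy genes. Both clones carry Cas9-induced mutations and were each grown from a single cell, so that loss of TFEB and any other difference of that 1 clone cannot be told apart. No group received interferon.

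Type I interferons bind a receptor made of IFNAR1 and IFNAR2, whose kinases JAK1 and TYK2 phosphorylate STAT proteins. Together with IRF9, STAT2 acts in a complex that binds the interferon-stimulated response element (ISRE) in the promoters of antiviral genes. IRF7, itself induced by interferon, drives further interferon production, and USP18 and SOCS1 damp the receptor. Many of these genes are also expressed at a low tonic level in lymphocytes without infection.

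The libraries held 11223588 to 29655262 counts (median 19846544). The lowest was replicate 1 of parental cells at 18 h. The targeted gene Tfeb was at 79.2 to 99.9 CPM (counts scaled to a common library total, with TMM factors) in the 6 parental libraries, at 25.5 to 40.5 CPM in those of #A-59 and at 34.2 to 54.1 CPM in those of #B-20. All 10 B cell markers listed were expressed, with a summed level of 6960 to 15200 CPM over the libraries. Of them Cd74, the invariant chain of MHC class II, fell in #B-20 at all 3 times. Of 8 plasmacytoid dendritic cell markers, 6 were tested, and their sum was 534 to 741 CPM in parental libraries, while #A-59 had 391 to 549 CPM and #B-20 had 357 to 411 CPM and the defining marker Siglech had 0 counts. Of 8 macrophage markers, 6 were tested, with sums of 93.5 to 156 CPM, 66.9 to 129 CPM and 58.7 to 75.8 CPM in the same order, with Mpeg1 the most abundant, while Lyz2 and Cd14 had at most 1 count. Itgam of this list was called higher than in parental cells in #A-59 at all 3 times and in #B-20 at 0 and 6 h, Csf1r in #A-59 at 6 h, and Mpeg1 was called lower in #B-20 at 6 and 18 h. Of the plasmacytoid dendritic cell list, Ly6d and Tcf4 made up most of the sum. Runx2 and Pacsin1 were called lower in both clones at all 3 times, Ccr9 in both at 6 h, and Ly6d in #B-20 at 0 and 18 h. The part of these markers in the results below was not tested. The 6 T cell markers had at most 9 counts each.

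The promoter sequences show which of these genes carry the response element near their start. RefSeq windows of GRCm38.p6, from 250 bases before to 50 bases after the transcription start, were at hand for 35 of the 44 genes. The ISRE core GAAANNGAAA, searched on both strands with overlapping matches allowed, occurred in 17 of these 35 windows, against 3.99% of all 27025 genes with a window. The motif TTCNNNGAA, known as the interferon-γ activated site, occurred in 13 of 35, against 9.55% of all genes, and the E-box core CACGTG, contained in the site that TFEB binds, in 2 of 35 (Psmb10 and Trim25), against 8.09%. The following stretches upstream of the start, in the direction of transcription, are shown because they place the ISRE core, in capitals, beside the values given below. Adjacent or overlapping cores appear as 1 longer run of capitals, and a core on the other strand appears as its reverse complement. Isg15, Oas3, Irgm1 and Ifit1 were called lower in #B-20 than in #A-59 at 1 time or more, while Bst2, Gbp2, Stat2 and Socs1 were not.
Isg15, chr4:156200850-156200921, minus strand: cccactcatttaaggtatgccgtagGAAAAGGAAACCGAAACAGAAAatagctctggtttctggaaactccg
Oas3, chr5:120777700-120777759, minus strand: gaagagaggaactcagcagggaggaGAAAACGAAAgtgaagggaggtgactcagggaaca
Irgm1, chr11:48871421-48871475, minus strand: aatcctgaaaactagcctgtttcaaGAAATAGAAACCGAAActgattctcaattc
Ifit1, chr19:34640760-34640838, plus strand: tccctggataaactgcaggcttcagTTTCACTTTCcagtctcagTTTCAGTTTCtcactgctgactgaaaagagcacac
Bst2, chr8:71537562-71537627, minus strand: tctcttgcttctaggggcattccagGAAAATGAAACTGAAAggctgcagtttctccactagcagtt
Gbp2, chr3:142620579-142620638, plus strand: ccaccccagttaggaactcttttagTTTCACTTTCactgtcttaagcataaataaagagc
Stat2, chr10:128270251-128270310, plus strand: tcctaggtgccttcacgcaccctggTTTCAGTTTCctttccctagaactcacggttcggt
Socs1, chr16:10785579-10785644, minus strand: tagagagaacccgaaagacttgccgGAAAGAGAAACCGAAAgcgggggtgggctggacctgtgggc
The first core began 78 bases before the start in Isg15, 75 in Oas3, 30 in Irgm1, 104 in Ifit1, 130 in Bst2, 59 in Gbp2, 222 in Stat2 and 83 in Socs1. Ifih1, Ddx58 and Eif2ak2 held it only downstream of the start. Of the 24 genes called lower in #B-20 than in #A-59 at 1 time or more, 16 had a window and 7 of these held the core, and of the other 19 genes with a window 10 held it. A match is a description of letters in this window, not of binding.

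Untreated parental cells expressed the 44 genes over a wide range. Per kilobase of exon, the highest levels were those of Bst2, a membrane tether that holds back budding virus, at 199 CPM per kb, followed by the exonuclease Isg20 at 77.9, the ubiquitin ligase Trim25 at 72.8 and the proteasome subunit Psmb10 at 58.9 CPM per kb. Irf7 stood at 33.6 CPM per kb. Among the genes at the low end were Rsad2 at 0.0913, Oas3 at 0.0844, Oas1a at 0.155, Ifit3 at 0.172 and Ifit1 at 0.305 CPM per kb. In counts, 36 genes had at least 10 in every library, and 7 that were tested did not (Ifit1, Ifit3, Oas1a, Oas3, Oasl2, Rsad2 and Rtp4). These 7 passed the filter on low counts through the groups in which they were higher, so that counts of calls are also given from a separate fit that left out every gene under 10 counts in any library and kept 11829 genes. The share of those 11829 genes that was called is not given, so the counts of that fit stand without a background.

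Genes were called by edgeR's quasi-likelihood test at a Benjamini-Hochberg adjusted p under 0.01 where the log2 fold change was also above 1 in size. The standard error (SE) given is the size of the log2 change divided by the square root of that test's F statistic. For genes with few counts the log2 change, and so this SE, depends on the prior count. Both clones were compared with the same parental libraries, so that their comparisons are not independent. The heat map and the plot of both clones against parental cells show all 43 genes.

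**Figure D1:**
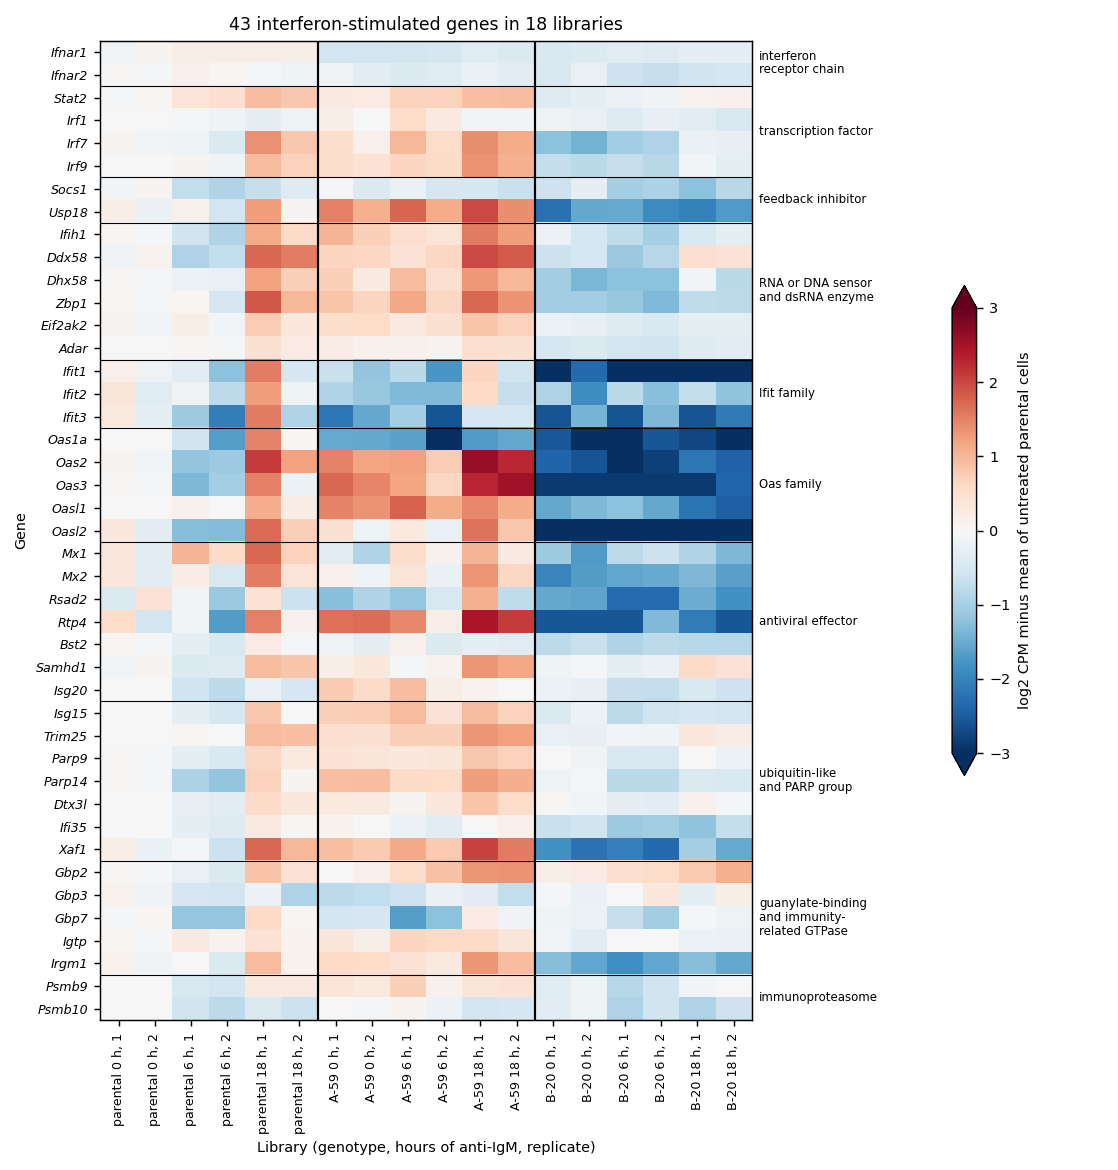
Level of the 43 tested genes (rows, grouped by role) in each of the 18 libraries (columns), as log2 CPM minus the mean of the 2 untreated parental libraries, with a prior count of 2 that shrinks low genes. Rows such as Oas2, Xaf1 and Irgm1 are red in #A-59 and blue in #B-20, and replicate 1 of parental cells at 18 h is redder than replicate 2.

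In clone #A-59 the genes lay mostly above their parental level, and few passed the threshold except at 6 h. At 0 h 3 genes rose, all of the Oas family of double-stranded RNA sensors (Oas2, Oas3 and Oasl1), where 2.30% of all 15318 genes tested rose and 2.48% fell, with a median log2 change of 0.27 over the 43 genes and −0.01 over all genes. At 6 h 13 of 43 genes rose, where 4.28% of all genes rose and 3.64% fell, with a median log2 change of 0.58. These were the transcription factor Irf7, the interferon-restraining protease Usp18, the RNA or DNA sensors Ifih1, Ddx58 and Zbp1, the 3 Oas genes named above, Isg20, the ubiquitin-like modifier Isg15, the PARP enzyme Parp14, the pro-apoptotic factor Xaf1 and the guanylate-binding protein Gbp2. At 18 h Oas3 rose and Oas1a fell, where 2.00% of all genes rose and 2.91% fell, and the median was 0.19. None of the 43 was called lower at 0 or 6 h by edgeR or by DESeq2. At an unadjusted p under 0.05 (edgeR), 6 and 2 genes respectively were lower and 24 and 29 higher. Of all genes, 26.1% and 42.6% passed that limit in either direction. In the separate fit, 2 of the 36 genes rose at 0 h, 12 at 6 h and 0 at 18 h. The count at 6 h was 6 without replicate 1 of #A-59 at 6 h and also 6 without replicate 2 of parental cells at 6 h. At 0 h it was 1 without replicate 1 of #A-59 and 1 without replicate 2 of parental cells.

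In clone #B-20 the genes lay mostly below their parental level, with 42, 38 and 41 of 43 log2 changes negative at 0, 6 and 18 h. At 0 h 9 of 43 fell, where 3.37% of all genes fell and 1.79% rose, with a median log2 change of −0.59. The 9 were all 5 genes of the Oas family, Irf7, the sensor-like helicase Dhx58, Xaf1 and Irgm1, a GTPase of resistance to intracellular pathogens. At 6 h 5 of 43 fell (Dhx58, Oas2, Oasl1, Xaf1 and Irgm1), where 3.85% of all genes fell and 2.88% rose, with a median of −0.59. At 18 h 20 of 43 fell, where 4.30% of all genes fell and 1.91% rose, with a median of −1.01. These 20 were all 5 listed Oas genes, 4 of 6 sensors and double-stranded RNA enzymes (Ifih1, Ddx58, Dhx58 and Zbp1), Ifit1 and Ifit3 of the RNA-binding Ifit family, the dynamin-like GTPases Mx1 and Mx2, the transcription factors Irf7 and Irf9, Usp18, Rtp4, Ifi35, Xaf1 and Irgm1. No gene was called higher in #B-20 at any time by edgeR or DESeq2, while the unadjusted p was under 0.05 for 28, 26 and 40 genes at 0, 6 and 18 h, of which 28, 24 and 38 were lower, where 29.7%, 34.7% and 33.9% of all genes passed that limit. In the separate fit of genes with 10 counts in every library, 8, 6 and 14 of the 36 fell. The count in untreated cells was 3 without replicate 2 of #B-20, 5 without any 1 of the other 3 libraries compared, and 14 without either parental library of 18 h, which enter only through the shared estimate of spread. At 6 h it was 2 without replicate 2 of #B-20, 3 without replicate 1 of #B-20 or of parental cells, and 11 without either parental library of 18 h. In replicate 2 of #B-20 at 6 h, 1 gene (ENSMUSG00000106106) held 2.90% of all counts, while the top gene of any other library held at most 0.819%, and its part in the result was not tested. A fit of only the libraries compared called 14, 11 and 11 genes lower in #B-20 at 0, 6 and 18 h. Here and elsewhere, the share of all genes called in such a fit, by DESeq2 or without 1 library is not given. Those counts stand without a background. With a replicate block more genes than in the main fit were called at 0 and 6 h, as given in the closing section.

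**Figure D2:**
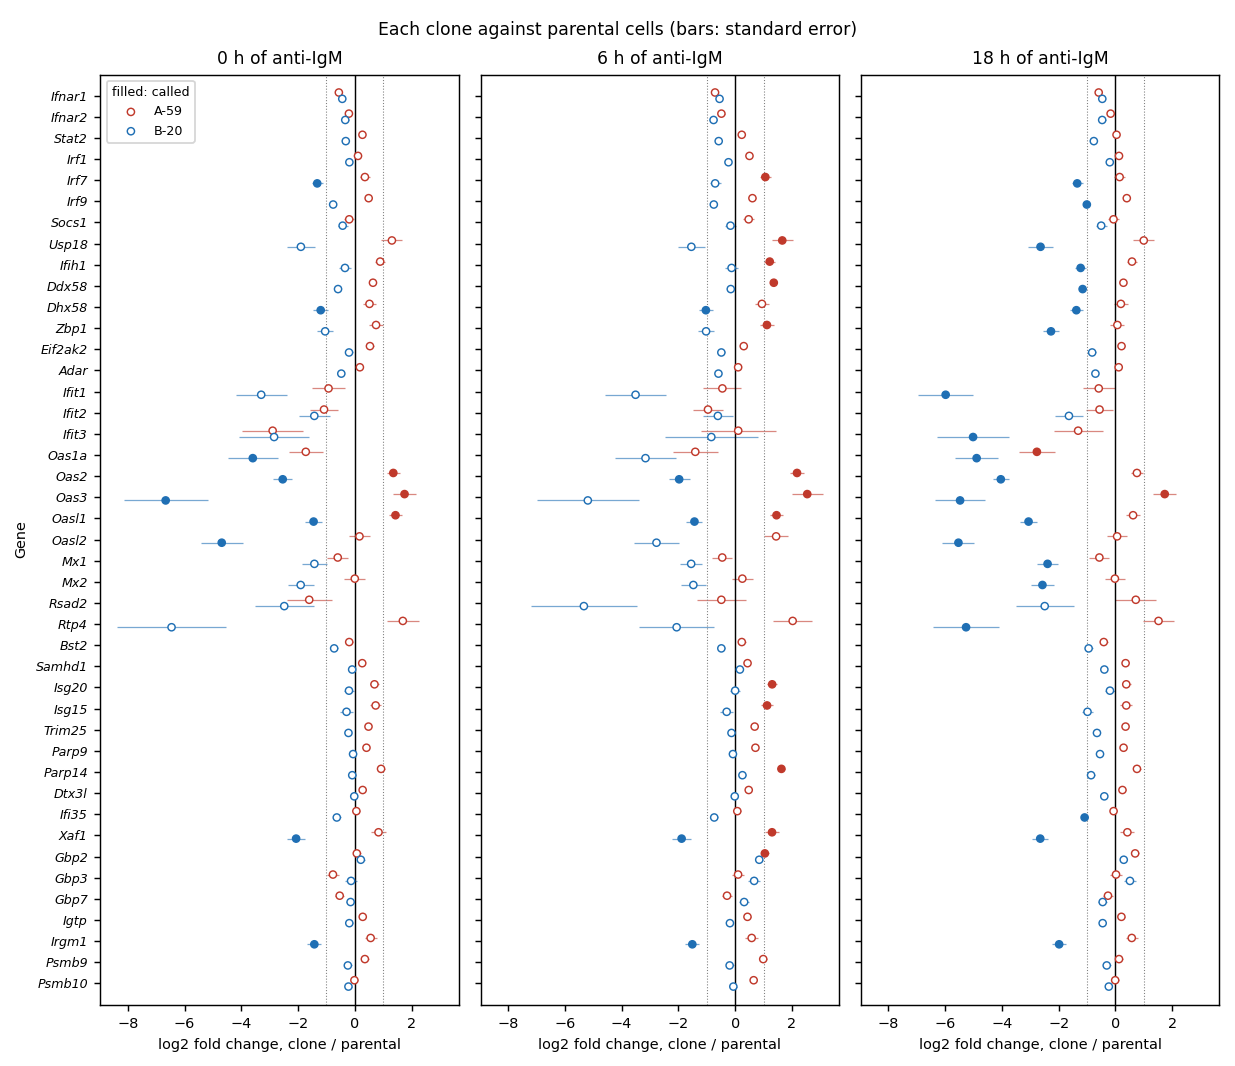
Log2 fold change of each clone against parental cells (x axis) for the 43 genes (y axis) at 0, 6 and 18 h, with the standard error as bars and called genes filled. #A-59 lies mostly right of 0 and #B-20 mostly left; values against groups with 0 to 3 counts, such as Oas3 in #B-20, depend on the prior count and are no bounds.

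The receptor chains Ifnar1 and Ifnar2 were not called in either clone at any time, with log2 changes of −0.71 to −0.17 in #A-59 and of −0.76 to −0.34 in #B-20. The 3 Ifit genes did not share the direction of most other genes in #A-59, where their log2 changes untreated were −2.90 to −0.93, none of them called. Psmb9 and Psmb10, catalytic subunits of the immunoproteasome, lay between −0.31 and −0.06 in #B-20 and between −0.02 and 0.99 in #A-59. The interferon-inducible GTPases were split. Irgm1 fell in #B-20 at all 3 times, by 1.43, 1.51 and 1.98 on the log2 scale, while Gbp2 had log2 changes of 0.21, 0.85 and 0.29 there, none of them called. The 7 genes of the ubiquitin-like and PARP group included Xaf1, which fell at all 3 times, and Ifi35, which fell at 18 h, while Isg15, Trim25, Parp9, Parp14 and Dtx3l were not called in #B-20.

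Oas2, an oligoadenylate synthetase that activates RNase L in response to double-stranded RNA, was called in opposite directions in the clones at 0 and 6 h. Untreated parental libraries had 13.1 and 11.7 CPM, those of #A-59 34.98 and 28.3 CPM, and those of #B-20 2.28 and 1.98 CPM. After 6 h parental libraries had 5.37 and 5.73 CPM, those of #A-59 29.0 and 21.0 CPM and those of #B-20 1.18 and 1.70 CPM. At 18 h they were 53.4 and 28.6 CPM, 76.4 and 60.2 CPM, and 2.67 and 2.24 CPM in the same order. The 3 genotypes did not overlap at any time, with #A-59 highest and #B-20 lowest. In #A-59 Oas2 was higher than in parental cells by a log2 change of 1.35 ± 0.23 (SE) at 0 h and 2.18 ± 0.26 at 6 h (adjusted p = 0.000631 and 8.33e-06, edgeR's quasi-likelihood test), and by 0.76 ± 0.22 at 18 h, which was not called (adjusted p = 0.0281, edgeR). The call at 0 h was lost without replicate 1 of #A-59 at 0 h or replicate 2 of parental cells at 0 h. In #B-20 the log2 changes were −2.54 ± 0.33, −1.97 ± 0.37 and −4.04 ± 0.28 (adjusted p = 3.56e-05, 0.00102 and 3.06e-08, edgeR). That at 6 h was not called without replicate 1 of #B-20 at 6 h.

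Oasl1, an Oas-like protein that restrains translation of Irf7, had the same order. Untreated parental libraries had 7.49 and 7.53 CPM, those of #A-59 21.3 and 19.1 CPM and those of #B-20 2.54 and 2.91 CPM. At 6 h it stood at 8.17 and 7.41 CPM, 26.0 and 16.4 CPM, and 3.15 and 2.55 CPM. At 18 h it stood at 16.1 and 8.71 CPM, 20.5 and 16.5 CPM, and 1.56 and 1.31 CPM. The libraries of #A-59 were above all parental libraries of the same time, at 18 h narrowly, and those of #B-20 below. The log2 change of #A-59 was 1.43 ± 0.23 untreated and 1.46 ± 0.23 after 6 h (adjusted p = 0.000201 and 9.56e-05, edgeR), and −1.46 ± 0.29, −1.43 ± 0.28 and −3.06 ± 0.29 at 0, 6 and 18 h in #B-20 (adjusted p = 0.00161, 0.00106 and 4.36e-07, edgeR). The calls of #B-20 at 0 h were lost when any 1 of the 4 libraries compared was left out, and at 6 h without replicate 1 of parental cells or replicate 2 of #B-20 at 6 h.

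Oas3, an oligoadenylate synthetase that senses long double-stranded RNA, was low throughout and virtually without counts in #B-20. Parental libraries had 17 and 14 counts untreated, 4 and 6 after 6 h, and 21 and 10 after 18 h. Those of #A-59 had 65 and 35, 39 and 16, and 63 and 64 counts. Those of #B-20 had 0 and 0, 0 and 0, and 0 and 1. Pooled over the 2 libraries and scaled by library size, Oas3 was at least 6.20-fold lower in #B-20 than in parental cells at 0 h and at least 2.51-fold lower at 6 h, with 3 counts per group as the floor of a count of 0. Such bounds, here and below, take the higher count as exact and leave out its counting error. Neither they nor the ratios take account of the filter, which such genes passed through the groups in which they were higher. At 18 h the ratio was 55.9 with a 95% interval of 9.31 to 2280, which covers counting error only. In #A-59 Oas3 was higher by log2 changes of 1.75 ± 0.41, 2.54 ± 0.55 and 1.74 ± 0.41 (adjusted p = 0.00702, 0.00184 and 0.00634, edgeR), and the calls at 0 and 18 h were not made by DESeq2. At 0 h the calls of both clones were lost without any 1 of the libraries compared. That of #A-59 at 6 h was lost without replicate 1 or 2 of parental cells or replicate 1 of #A-59 at 6 h, and that at 18 h without either library of #A-59 or replicate 2 of parental cells at 18 h. Leaving out some libraries of other groups, which enter through the shared spread, also ended the calls of #A-59 at 0 and 18 h.

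Xaf1, an interferon-induced antagonist of apoptosis inhibitors, was called in opposite directions at 6 h. At that time parental libraries had 11.2 and 7.45 CPM, those of #A-59 25.6 and 19.99 CPM and those of #B-20 2.76 and 2.22 CPM. Untreated, they were 13.5 and 10.1 CPM, 21.9 and 20.04 CPM, and 3.21 and 2.42 CPM. At 18 h they were 38.9 and 23.3 CPM, 47.4 and 34.6 CPM, and 5.72 and 4.03 CPM. The libraries of #B-20 were lowest at each time, while those of parental cells and #A-59 overlapped at 18 h. The log2 change in #B-20 was −2.07 ± 0.33, −1.89 ± 0.34 and −2.65 ± 0.28 (adjusted p = 0.00033, 0.000643 and 3.89e-06, edgeR). In #A-59 at 6 h it was 1.30 ± 0.26 (adjusted p = 0.00126, edgeR). The call of #A-59 was lost without replicate 1 of #A-59 or replicate 2 of parental cells at 6 h, and those of #B-20 at 0 and 6 h without its replicate 2 of the same time.

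Oas1a alone was called lower in both clones at the same time, at 18 h. It is a low gene. Parental libraries had 34 and 30 counts untreated, 18 and 8 after 6 h, and 41 and 25 after 18 h, those of #A-59 had 11 and 7, 9 and 0, and 6 and 6, and those of #B-20 had 2 and 1, 0 and 2, and 3 and 1. At 18 h the groups of both clones lay below the parental libraries, and #B-20 below #A-59. The log2 change at 18 h was −2.77 ± 0.64 in #A-59 (adjusted p = 0.00508, edgeR) and −4.89 ± 0.76 in #B-20 (adjusted p = 0.000104, edgeR). Untreated, Oas1a was also called in #B-20 (adjusted p = 0.00734, edgeR), and its 3 counts there, pooled and scaled, were 12.8-fold under the parental level with a 95% counting interval of 4.18 to 63.7. The call of #A-59 was lost without either of its libraries or replicate 1 of parental cells at 18 h, and that of #B-20 at 0 h without any 1 of the libraries compared. Between the clones Oas1a did not pass the threshold at 18 h, with a log2 change of −2.12 ± 1.05 (adjusted p = 0.152, edgeR).

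**Figure D3:**
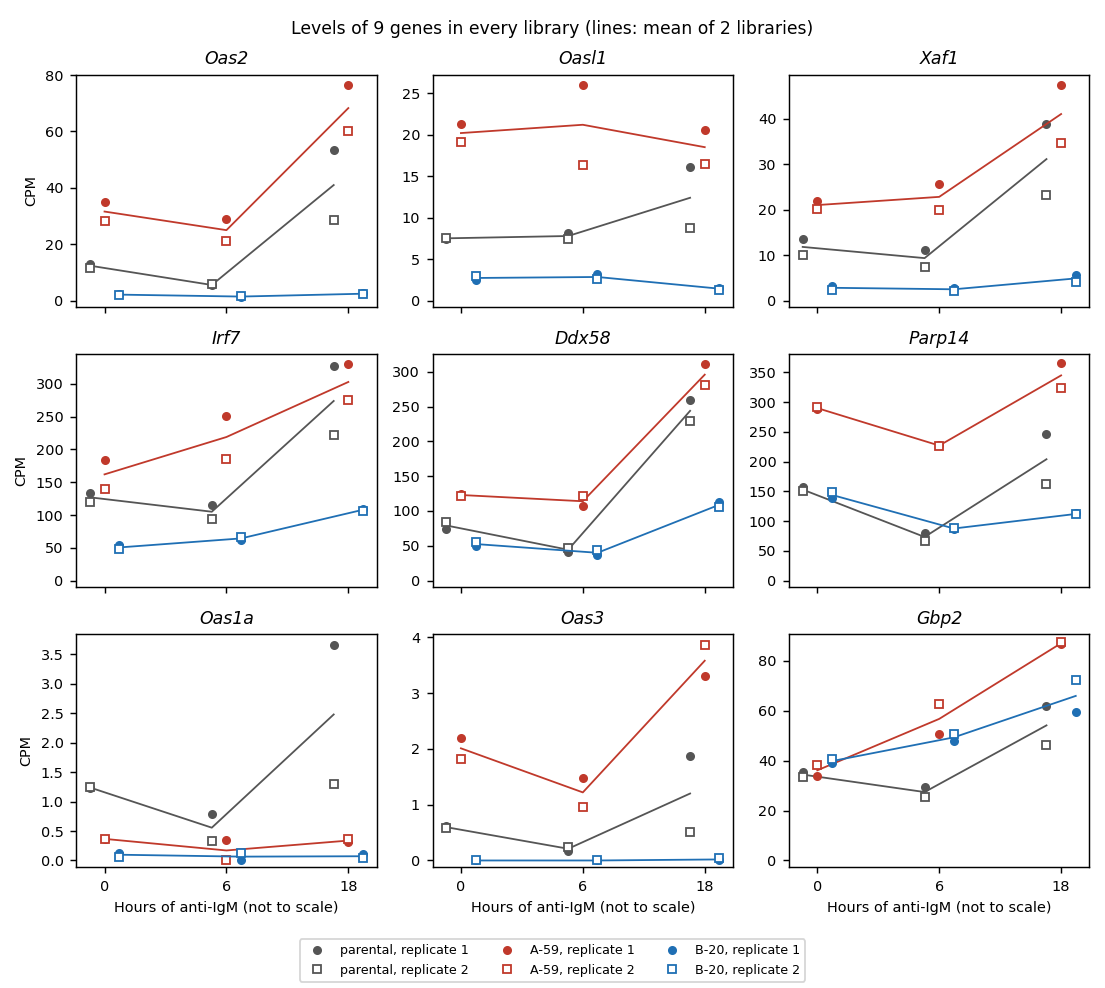
CPM (y axis, linear) of 9 genes at 0, 6 and 18 h of anti-IgM (x axis) in parental cells (grey), #A-59 (red) and #B-20 (blue), with both libraries of each group as points and their mean as a line. Oas2, Oasl1 and Xaf1 are highest in #A-59 and lowest in #B-20, whereas Gbp2 has no such order and Oas1a is low in both clones.

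The clones were then contrasted with each other. The parental libraries are no side of this contrast and enter its p-values through the shared estimate of spread. #B-20 was lower than #A-59 in 16 of 43 genes at 0 h, where 2.57% of all genes were lower and 1.28% higher. It was lower in 19 of 43 at 6 h, where 3.63% of all genes were lower and 2.19% higher, and in 22 of 43 at 18 h, where 2.83% were lower and 1.98% higher. The median log2 difference of the 43 genes was −0.82, −1.18 and −1.37, or −1.10 at 6 h with low genes set at their bounds. No gene was called higher in #B-20 by edgeR or DESeq2, while 31, 36 and 38 genes were lower at an unadjusted p under 0.05, of 33, 38 and 39 in either direction, where 28.9%, 42.8% and 37.1% of all genes passed that limit in either direction. DESeq2 called 17, 20 and 22 lower, and the separate fit of genes with 10 counts in every library called 14, 16 and 18 of the 36 lower. Both libraries of #B-20 lay under both of #A-59 in 35, 36 and 40 of the 43 genes at 0, 6 and 18 h, as they did in 29.5%, 29.9% and 30.2% of all genes.

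By role, 4 of the 5 listed Oas genes were called lower in #B-20 than in #A-59 at each time, all but Oas1a. The log2 difference of Oas2 was −3.90, −4.15 and −4.80 and that of Oasl1 −2.89, −2.89 and −3.68. Oas3 was at least 21.2-fold lower untreated and at least 15.2-fold lower after 6 h, and after 18 h the ratio was 196 with a 95% counting interval of 34.5 to 7790. Rtp4, which helps receptors to the cell surface, had 0 pooled counts in untreated #B-20 and was at least 17.4-fold lower there. Of 6 sensors and double-stranded RNA enzymes 4, 4 and 5 were called, and of the 4 transcription factors Irf7 and Irf9 at each time. Usp18 was lower in #B-20 by 3.21, 3.20 and 3.64 on the log2 scale. Of the ubiquitin-like and PARP group 3, 3 and 5 of 7 genes were called, and of the 7 antiviral effectors 1, 3 and 3. Of 5 guanylate-binding and immunity-related GTPases, Irgm1 was the one called, at all 3 times, Psmb9 was called at 6 h, and Ifnar1, Ifnar2 and Psmb10 were not called. The 16 genes called at every time were Irf7, Irf9, Usp18, Ifih1, Ddx58, Dhx58, Zbp1, Oas2, Oas3, Oasl1, Oasl2, Rtp4, Isg15, Parp14, Xaf1 and Irgm1.

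With anti-IgM, 0 to 3 of the 43 genes were called at 6 h and 2 to 5 at 18 h, depending on the genotype. In parental cells 3 genes fell at 6 h (Oas2, Parp14 and Gbp7), where 1.46% of all genes fell and 1.17% rose, with a median log2 change of −0.36 over the 43 and 0.01 over all genes. At 18 h 5 rose (Irf7, Ddx58, Zbp1, Oas2 and Xaf1), where 5.56% of all genes rose and 4.75% fell, with a median of 0.63. In a fit of only the libraries compared, Ddx58 alone was called at 18 h. In #A-59 no gene was called at 6 h by edgeR or DESeq2, where 0.594% of all genes rose and 0.796% fell, and 12 genes had an unadjusted p under 0.05, as had 28.5% of all genes. At 18 h Ddx58, Oas2 and Gbp2 rose, where 4.17% of all genes rose and 4.59% fell, with a median of 0.59. In #B-20 none was called at 6 h by either tool, where 0.196% of all genes rose and 0.189% fell, and 14 had an unadjusted p under 0.05, as had 14.9% of all genes. At 18 h Irf7 and Ddx58 rose, where 2.93% of all genes rose and 1.87% fell, with a median of 0.08. These comparisons share no control libraries between genotypes.

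**Figure D4:**
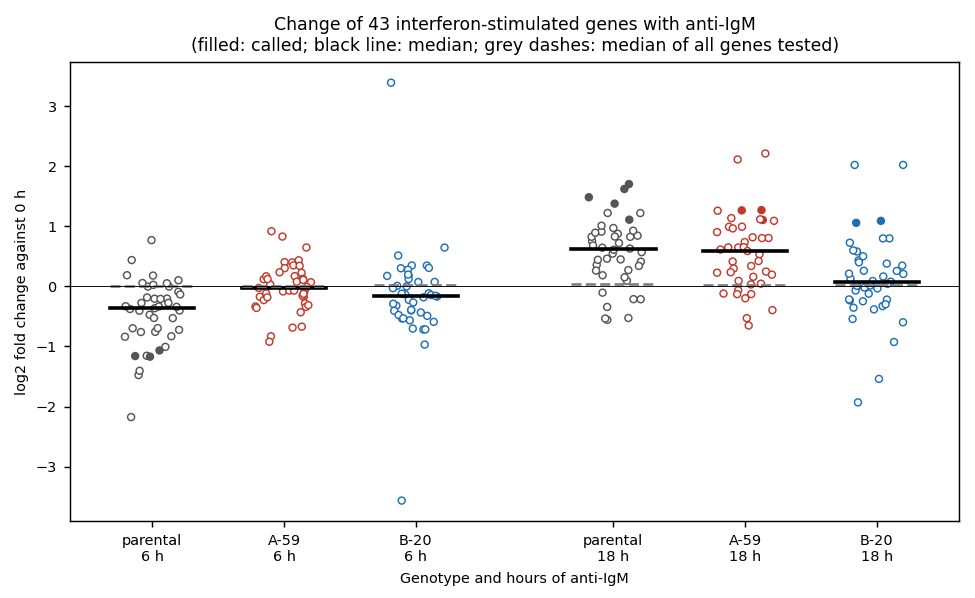
Log2 fold change of the 43 genes (points, filled where called) at 6 and 18 h of anti-IgM against 0 h of the same genotype (y axis), by genotype and time (x axis). At 18 h the median (black line) of parental cells is 0.63, that of #A-59 0.59 and that of #B-20 0.08, and the extreme points of #B-20 at 6 h are Rsad2 and Rtp4 with 0 to 2 counts.

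Ddx58, which encodes the RNA helicase RIG-I, rose with anti-IgM in all 3 genotypes at 18 h. Parental libraries went from 73.9 and 84.6 CPM to 259 and 229 CPM after 18 h, those of #A-59 from 124 and 122 CPM to 311 and 281 CPM, and those of #B-20 from 50.2 and 54.8 CPM to 113 and 106 CPM. At 6 h they were 41.6 and 47.0 CPM, 107 and 121 CPM, and 36.4 and 43.4 CPM. In each genotype the libraries at 18 h lay above those at 0 h. The log2 change at 18 h was 1.62 ± 0.11, 1.27 ± 0.11 and 1.06 ± 0.11 (adjusted p = 4.62e-09, 5.78e-08 and 1.64e-06, edgeR), and that of #B-20 was not called without replicate 1 of #B-20 at 0 or at 18 h. The response of #B-20 differed from the parental one by −0.56 ± 0.15 and that of #A-59 by −0.36 ± 0.15, neither of which was called (adjusted p = 0.0948 and 0.649, edgeR).

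Irf7 rose at 18 h in parental cells, from 134 and 120 CPM to 327 and 222 CPM, a log2 change of 1.11 ± 0.19 (adjusted p = 0.000183, edgeR). In #B-20 it rose from 53.6 and 47.6 CPM to 109 and 106 CPM, a log2 change of 1.09 ± 0.19 (adjusted p = 0.000466, edgeR). In #A-59 it went from 184 and 140 CPM to 331 and 276 CPM, a log2 change of 0.90 ± 0.18, under the threshold of 1 (adjusted p = 0.00102, edgeR). At 6 h Irf7 stood at 116 and 93.8 CPM, 252 and 186 CPM, and 61.9 and 66.8 CPM in parental cells, #A-59 and #B-20. The stimulated libraries at 18 h lay above the untreated ones in each genotype, while the stimulated level of #B-20 stayed under the untreated parental level. Without replicate 1 of parental cells at 18 h the parental rise of Irf7 was not called, nor was that of #B-20 with a correction for GC content.

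Zbp1, a sensor of Z-form nucleic acids that can start necroptosis, stood at 26.1 and 24.0 CPM in untreated parental cells, then at 26.0 and 17.6 CPM after 6 h, and finally at 91.4 and 50.3 CPM, a log2 change at 18 h of 1.48 ± 0.26 (adjusted p = 0.000406, edgeR). In #A-59 it stood at 44.9 and 39.1 CPM, 55.8 and 38.4 CPM, and 83.4 and 63.7 CPM. In #B-20 it stood at 12.2 and 12.1 CPM, 11.3 and 9.99 CPM, and 14.7 and 14.4 CPM, with a log2 change at 18 h of 0.26 ± 0.29 (adjusted p = 0.532, edgeR). The parental libraries at 18 h were far apart, though both above 0 h, and those of #B-20 reached at most 14.7 CPM. The difference between the responses of #B-20 and parental cells at 18 h, −1.22 ± 0.39, was not called (adjusted p = 0.187, edgeR). The parental call was lost without replicate 1 of parental cells at 18 h. For Oas2, with the levels given above, the response at 18 h of parental cells was 1.70 ± 0.24, that of #A-59 1.11 ± 0.22 and that of #B-20 0.21 ± 0.39 (adjusted p = 2.87e-05, 0.000799 and 0.722, edgeR). That of #A-59 was not called without its replicate 1 at 18 h or its replicate 2 at 0 h. For Xaf1 the parental response of 1.38 ± 0.26 (adjusted p = 0.000446, edgeR) was lost without replicate 1 at 18 h or replicate 2 at 0 h.

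At 6 h in parental cells Parp14, an ADP-ribosyltransferase, fell from 157 and 150 CPM to 79.4 and 67.2 CPM, a log2 change of −1.07 ± 0.13 (adjusted p = 2.07e-05, edgeR), and was at 246 and 163 CPM at 18 h. Its levels in #A-59 were 288 and 293 CPM, 227 and 226 CPM, and 365 and 324 CPM, and in #B-20 139 and 149 CPM, 87.2 and 87.8 CPM, and 114 and 111 CPM. The libraries at 6 h lay under those at 0 h in every genotype. Gbp7, a guanylate-binding protein of the interferon-γ response, fell at 6 h from 18.5 and 20.2 CPM to 8.61 and 8.55 CPM in parental cells, by 1.17 ± 0.17 on the log2 scale (adjusted p = 0.000125, edgeR), and stood at 29.3 and 20.2 CPM at 18 h. In #A-59 it went from 13 and 13.7 CPM through 6.06 and 8.21 CPM after 6 h to 22.7 and 17.97 CPM after 18 h, and in #B-20 from 17.74 and 17.1 CPM to 11.96 and 9.27 CPM and 18.6 and 17.2 CPM. The 6 h level was the lowest in each genotype, though the log2 changes of −0.92 ± 0.18 and −0.70 ± 0.18 in the clones were not called (adjusted p = 0.00293 and 0.0412, edgeR). Of the parental calls at 6 h, that of Oas2 was lost without any 1 of its 4 libraries and that of Parp14 without replicate 2 at 6 h.

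Gbp2, a guanylate-binding protein that attacks the membranes of intracellular vacuoles, was the one gene called in #A-59 at 18 h but not in the other genotypes. It rose from 33.9 and 38.4 CPM untreated through 50.6 and 62.8 CPM after 6 h to 86.6 and 87.4 CPM after 18 h, a log2 change at 18 h of 1.27 ± 0.13 (adjusted p = 5.88e-07, edgeR). Parental libraries had 35.4 and 33.4 CPM, 29.3 and 25.5 CPM, and 61.8 and 46.4 CPM, and those of #B-20 38.9 and 40.7 CPM, 48.0 and 50.6 CPM, and 59.6 and 72.2 CPM. All libraries at 18 h lay above those at 0 h. The responses at 18 h of 0.64 ± 0.13 in parental cells and 0.73 ± 0.13 in #B-20 were under the threshold of 1 (adjusted p = 0.000725 and 0.000369, edgeR), and the difference of the #A-59 response from the parental one, 0.63 ± 0.19 at 18 h, was not called (adjusted p = 0.339, edgeR). At 6 h that difference was 0.98 ± 0.19 (adjusted p = 0.00997, edgeR), just under the threshold in size.

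Whether the clones responded differently from parental cells was tested by the interaction of genotype and time. None of the 43 genes was called for #A-59 at 6 or 18 h or for #B-20 at 6 or 18 h by edgeR or DESeq2, where 0.339%, 0.0326%, 0.131% and 0.163% of all genes were called in either direction. At an unadjusted p under 0.05 (edgeR) stood 14, 5, 6 and 15 of the 43 genes, against 13.9%, 6.67%, 7.45% and 13.6% of all genes. Among the 43, 14, 3, 4 and 1 were higher at that limit and 0, 2, 2 and 14 lower. The difference was positive in 38, 14, 30 and 5 of the 43 genes, whether or not it passed the limit. The median difference of response was 0.36, −0.10, 0.17 and −0.37 on the log2 scale. These comparisons share the parental libraries.

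The 2 libraries of a group differed for these genes mostly in 1 direction in parental cells and #A-59. Replicate 1 was higher than replicate 2 in 41 of 43 genes in parental cells at 18 h, with a median log2 difference of 0.53, where the median of all genes was −0.01 and 48.4% of all genes were higher in replicate 1. Ifit1, a sensor of foreign RNA ends, was at 6.69 and 1.56 CPM in these libraries. In parental cells at 0 and 6 h 31 and 37 genes were higher in replicate 1, and in #A-59 33, 29 and 36 genes at 0, 6 and 18 h, with medians of 0.07 to 0.25. In #B-20 it was 21, 19 and 29 genes, with medians of −0.01 to 0.05. Without replicate 1 of parental cells at 18 h, the library with the lowest total, 2 genes rose in parental cells at 18 h instead of 5, the median response was 0.14 instead of 0.63, and 15 genes instead of 20 were lower in #B-20 at 18 h. Without replicate 2 of that group the figures were 11, 0.93 and 25.

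**Figure D5:**
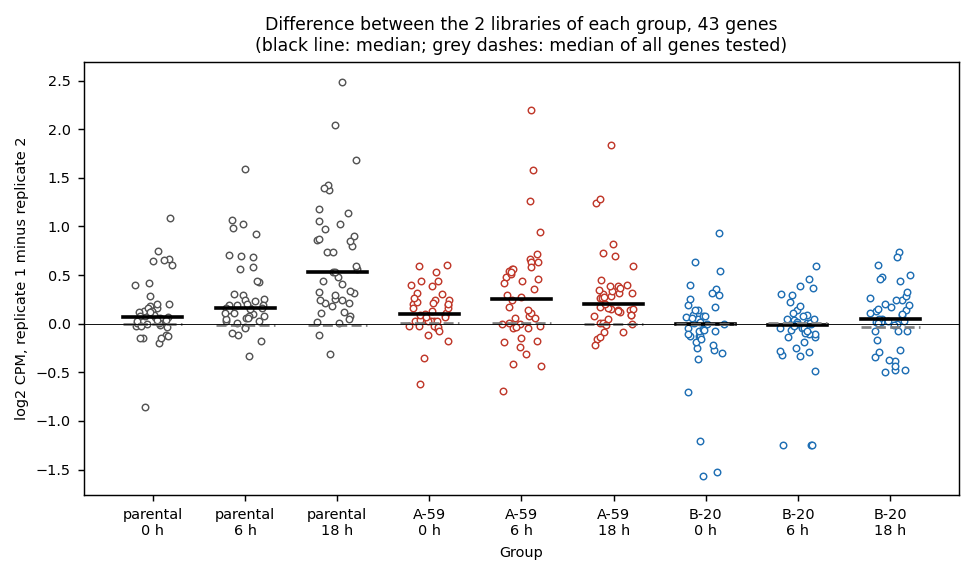
Difference in log2 CPM between replicate 1 and replicate 2 (y axis) of the 43 genes (points) in each of the 9 groups (x axis), with the median of the 43 (black) and of all genes tested (grey dashes). The medians of parental cells and #A-59 lie above 0, at most 0.53 in parental cells at 18 h, and those of #B-20 near 0.

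The other genes of the pathway came from 4 lists. Of 21 interferon ligands, none passed the filter on low counts: 12 had 0 counts in all 18 libraries and the highest count was 2, in Ifnz and Ifnl3. A count of 0 allows up to 3 counts in a library, so that such low transcription was not detectable at this depth. All 15 genes of receptor signalling outside the 44 were tested, among them Jak1 and Tyk2. The interferon-γ receptor chain Ifngr1, named after its values were seen, rose in #A-59 at 6 h and in #B-20 at 6 and 18 h, with log2 changes of 1.201 ± 0.09, 1.36 ± 0.09 and 1.05 ± 0.09 (adjusted p = 5.68e-09, 1.09e-09 and 3.67e-08, edgeR), and no other gene of the list was called in a clone. Ifngr1 was higher in both clones at 0 h too, by 0.91 and 0.80, under the threshold of 1.

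Of 20 genes of nucleic acid sensing upstream of interferon, 17 were tested. In #A-59 0, 1 and 0 were called against parental cells at 0, 6 and 18 h, and in #B-20 0, 2 and 1. The genes, named after their values were seen, were Tlr7, lower in both clones at 6 h, and the kinase Ikbke, higher in #B-20 at 6 and 18 h. Of 63 other interferon-stimulated genes, 42 were tested. In #A-59 1, 4 and 2 of them rose and 0, 1 and 1 fell, with median log2 changes of 0.28, 0.56 and 0.18. In #B-20 0 rose and 6, 9 and 14 fell, with medians of −0.53, −0.34 and −0.80. Against #A-59, 12, 14 and 18 of the 42 were lower in #B-20 and 0, 1 and 0 higher. These genes had been grouped with results of the same libraries known, and are given by their counts only. Of the 4 lists, no gene was called alike in both clones at every time.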

How the data were processed

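The deposited files hold raw read counts for 55487 genes. The authors made them with featureCounts from alignments that STAR gave on GRCm38, and the mRNA kit kept no strand. Per the labels, STAR was 2.5 and featureCounts 1.5.0-p1. Without strand, genes that overlap on opposite strands cannot be separated. Of the merged exons, 44.6% of Irf1 and 24.5% of Ifi35 are shared with genes on the other strand. Of those of Rtp4, 26.6% are shared with a gene on the same strand.

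Groups came from the sample labels. After filterByExpr, 15318 genes were fitted in edgeR 4.0.16 (R 4.3.3) with TMM factors and a quasi-likelihood model of all 18 libraries and 9 groups, and p-values were adjusted over all genes (Benjamini-Hochberg). The labels only number the replicates 1 and 2, and the study describes 2 independent experiments without more detail, so p-values measure the spread between these samples. DESeq2 1.42.0, other filters, thresholds, scaling and covariates, and leaving out each library were the alternatives. The fit was run on simulated data for #A-59 against untreated parental cells, over 14747 genes. There, 171 of 200 genes simulated with a log2 change of 2 were called and 0 others. These values hold for the simulated data only. How often unchanged genes are called in the real libraries was not tested. Library totals of 11223588 to 29655262 counts limit the genes with few counts, and intervals cover counting error only. Exon lengths, used for levels per kilobase, came from GENCODE vM39, another build than that of the counts.

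The members and gene lists were chosen with earlier results of these data known. Values in every library are given for members called in both clones at the same time and for the 3 called members with the largest log2 change in each response to anti-IgM. Other members are given by counts and ranges. Genes outside the members, apart from the listed markers, were named after their values were seen, and an item that the rule names is not reported here.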

Additional observations from a re-analysis of the deposited data

Results flagged for a closer look

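The clones differed from each other in the comparison with the same parental cells, as tested by the contrast of #B-20 with #A-59 in the model of all 18 libraries, where the parental ones enter the estimate of spread. Of the 43 genes, 16 were lower in #B-20 at 0 h, 19 at 6 h and 22 at 18 h by edgeR's quasi-likelihood test, where 2.57%, 3.63% and 2.83% of all genes were lower, and a separate fit of genes with 10 counts in every library called 14, 16 and 18 of 36. Oas2 differed by −3.90 at 0 h and −4.15 at 6 h on the log2 scale, Oasl1 by −2.89 at 0 h and −2.89 at 6 h, and Xaf1 by −3.19 at 6 h. Oas3 was at least 21.2-fold lower in #B-20 at 0 h, and at 18 h the ratio was 196 with a 95% counting interval of 34.5 to 7790. Oas3 passed the filter on low counts through the groups in which it was higher, and its folds do not take account of that. Each clone came from 1 cell, so that the clone and its mutation cannot be told apart.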

How the results depend on the processing

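Of 122 calls of single genes, 62 were kept in every alternative in which the gene was tested, and 0 reversed. For B-20 against A-59 it was 10 of 16, 15 of 19 and 16 of 22 calls at 0, 6 and 18 h. Few counts limit Ifit1, Ifit3, Oas1a, Oas3, Oasl2, Rsad2 and Rtp4. The causes of the changes below were not tested.

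With an adjusted p under 0.05 and no limit on the fold change, the counts for #A-59 against parental cells were 19, 28 and 11 (3, 13 and 2 in the report), for #B-20 23, 25 and 34 (9, 5 and 20), and for #B-20 against #A-59 28, 35 and 34 (16, 19 and 22). The responses at 6 and 18 h were then 13 and 25 in parental cells (3 and 5), 4 and 23 in #A-59 (0 and 3) and 4 and 11 in #B-20 (0 and 2), and the interaction of #A-59 at 6 h was 2 (0). Of all 15318 genes, this limit was passed by 2383, 5152 and 2634 for #A-59, 2728, 3598 and 3526 for #B-20 and 2465, 4911 and 4047 between the clones. For the responses it was 1956 and 6704 in parental cells, 2116 and 6774 in #A-59 and 439 and 5377 in #B-20, and 281 for that interaction. Without a filter on low counts, #A-59 had 5 at 0 h and the interaction of #B-20 at 18 h had 2. With only the libraries compared, #A-59 had 7 at 0 h and 1 at 18 h, #B-20 had 14, 11 and 11, and the responses at 18 h were 1 in parental cells and 5 in #A-59. DESeq2 called 1 in #A-59 at 18 h, 14 and 11 in #B-20 at 0 and 6 h, and 5 in the response of #A-59 at 18 h. With at least 10 counts in every library these were 0 for #A-59 at 18 h and 5 for its response at 18 h. A GC correction gave 1 in the response of #B-20 at 18 h and 1 in the interaction of #A-59 at 6 h.

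With a replicate block the counts were 5 for #A-59 at 0 h, 16 and 11 for #B-20 at 0 and 6 h, and 6 for the response of #A-59 at 18 h. With the replicate block and the GC correction they were 6, 15 and 9, and 6, with 8 in the response of parental cells at 18 h and 1 in the interactions of #A-59 at 6 h and of #B-20 at 18 h. The other counts stayed within 1.5 times under the block. For a check of pairing, the mean of each group was subtracted from its log2 CPM, and the deviations of replicate 1 were correlated between groups. The correlation of these deviations was over 0.1 in 14 of 36 pairs of groups and under −0.1 in 0 (−0.0258 to 0.32, median 0.0777). The labels give bare numbers, so whether the same number marks the same experiment cannot be decided here. The main fit did not pair the samples.

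The median log2 change of #B-20 against parental cells at 0 h (−0.59) was −0.39 with 10 counts in every library and −0.46 with only the libraries compared. The median log2 fold change of members, B-20 versus A-59, 0 h (−0.82) was −0.89 without a filter, −0.69 with 10 counts, −0.77 with only the libraries compared and −0.87 with the GC correction. It was at 6 h (−1.18) −0.81 with 10 counts, and at 18 h (−1.37) −1.02 with 10 counts and −1.07 with only the libraries compared.

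Leaving out 1 library at a time gave 1 to 4, 6 to 14 and 0 to 6 calls for #A-59 at 0, 6 and 18 h, 3 to 14 and 2 to 11 for #B-20 at 0 and 6 h, 1 to 3 and 2 to 11 for the responses of parental cells, 0 to 1 and 2 to 9 for those of #A-59, 1 to 3 for that of #B-20 at 18 h, and 0 to 1 for the interactions of #A-59 at 6 h and #B-20 at 18 h. The medians ranged from 0.26 to 0.38 for #A-59 at 0 h, 0.14 to 0.93 for the response of parental cells at 18 h, −0.17 to 0.09 and 0.30 to 0.66 for those of #A-59 at 6 and 18 h, −0.01 to 0.12 for that of #B-20 at 18 h, 0.15 to 0.61 for the interaction of #A-59 at 6 h, and −0.91 to −0.74 and −1.40 to −0.86 for #B-20 against #A-59 at 0 and 6 h. The median response of #A-59 at 6 h (−0.03) turned to 0.06 without its replicate 1 at 0 h and to 0.09 without its replicate 2 at 6 h, and that of #B-20 at 18 h (0.08) to −0.01 without its replicate 1 at 18 h.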
